A study of Homo sapiens with 18 samples.

Results

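MM1S is an established human multiple myeloma cell line, a tumour of plasma cells, and the comparison described here set MM1S libraries with a short hairpin RNA against RBM39 (shRBM39) against libraries with a scrambled control hairpin (scramble). The members were chosen by their labels, and 4 of the 18 libraries in the study qualified, 2 scramble and 2 shRBM39. All were bulk RNA sequencing libraries made from total RNA, and the values were in TPM (transcripts of a gene as a share of all transcripts), so that levels are already scaled for length and library size. Also used, as a second way to lose RBM39, were 3 MM1S libraries treated with the solvent DMSO and 3 treated with indisulam, and, from another MM1S assay, 1 RNA immunoprecipitation (RIP) directed at RBM39 and 1 IgG control. The labels give no dose, time or hairpin sequence, and do not say whether the numbers 1 and 2 of the shRBM39 libraries stand for replicates or for different hairpins. They were treated as replicates, and p-values then cover the spread among 4 libraries, a spread that may be technical.

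RBM39 is an RNA-binding protein related to the splicing factor U2AF2. It takes part in the recognition of 3' splice sites and also acts as a coactivator of some transcription factors. Indisulam is a sulfonamide that binds the ubiquitin ligase receptor DCAF15 and brings the RBM39 protein to it for degradation, so it lowers the protein without having to lower the transcript. Plasma cells secrete antibody, depend on a large folding and disposal machinery, and normally do not divide, whereas myeloma lines grow continuously.

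RBM39 itself was at 176 and 205 TPM in scramble libraries 1 and 2 and at 64.8 and 52.2 TPM in shRBM39 libraries 1 and 2. Both knockdown libraries lay below both controls, at 190.4 ± 20 TPM (mean ± SD, n = 2) with scramble and 58.5 ± 8.89 TPM (n = 2) with shRBM39. The change was -1.69 on the log2(TPM + 1) scale (SE 0.161, limma adjusted p = 0.0121). A 2-sided exact permutation test gave p = 0.333, the smallest that 2 against 2 libraries allow. Without scramble 1 the limma adjusted p was 0.102 and without scramble 2 it was 0.0905, at changes of -1.80 and -1.58. MAP2K5, the gene of the kinase MEK5 that the study's title names, was at 9.36 and 6.74 TPM with scramble and 9.38 and 9.9 TPM with shRBM39, so that scramble 1 and shRBM39 1 were nearly equal (log2 change 0.25, limma adjusted p = 0.451).

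Of 14152 genes tested, 1461 (10.3%) passed limma's test at a Benjamini-Hochberg adjusted p below 0.05. Of all genes tested, 899 (6.35%) fell with shRBM39 and 562 (3.97%) rose. Genes that fell had a median log2 change of -1.17, and their median level went from 30.5 TPM with scramble to 12.7 TPM with shRBM39. Genes that rose had a median log2 change of 1.05 and lower starting levels, with medians of 10.9 and 24.5 TPM. A change of at least 2-fold on this scale was reached by 586 (65.2%) of the genes that fell and 301 (53.6%) of those that rose. The median change of all genes tested was 0. Protein-coding genes made up 90.3% of the genes that fell, 71.7% of those that rose and 78.5% of those not called. Calls were lost when either scramble library was left out, and most were kept when either shRBM39 library was. Such a fit leaves 1 library on a side, so its spread comes from the other pair alone. The shRBM39 pair lay further apart (median difference 0.244) than the scramble pair (0.168). Which libraries the calls rest on therefore cannot be read from these fits.

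**Figure D1:**
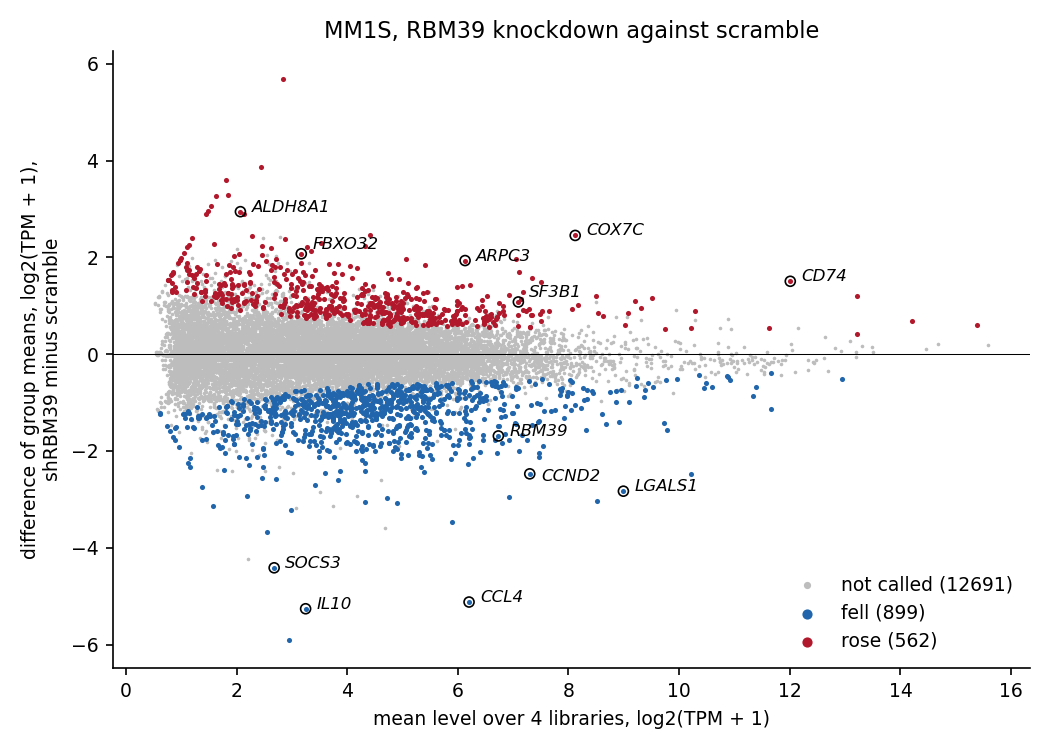
Difference between the shRBM39 and scramble means of each of the 14152 tested genes, on the log2(TPM + 1) scale, against its mean level over the 4 libraries, with genes that passed limma's test in blue (899 fell) or red (562 rose). The chemokine gene CCL4 and the genes IL10 and SOCS3 lie lowest among the labelled genes, and COX7C combines a high level with a rise of 2.45.

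Consistency was judged by the gap between the closest libraries of both sides, that is, the higher of the pair on the lower side against the lower of the pair on the upper side. For 4510 genes (31.9%) both shRBM39 libraries lay below both controls, and for 4318 (30.5%) both lay above, so non-overlap alone is common with 2 libraries a side. A gap of at least 1 on the log2(TPM + 1) scale was rarer, with 419 genes (2.96%) lower and 209 (1.48%) higher. Of the genes that fell, 402 (44.7%) had such a gap, and of those that rose 196 (34.9%). Non-overlap held for all 899 genes that fell and all 562 that rose, so it adds nothing to a call. The 2 scramble libraries differed from each other by a median of 0.168 on this scale over all genes tested, the 2 shRBM39 libraries by 0.244, and any scramble library from any shRBM39 library by 0.368 to 0.394. Differences of 2-fold or more were found for 426 genes (3.01%) between the scramble libraries, for 728 (5.14%) between the shRBM39 libraries and for 1706 to 2028 (12.1% to 14.3%) between a library of each side.

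The libraries carried the markers of plasma cells. All 12 plasma cell markers were at 1 TPM or more in every library, with summed levels of 5003 and 7265 TPM with scramble and 9172 and 7834 TPM with shRBM39, and SLAMF7 was the 1 of them that rose. SDC1, the gene of the plasma cell marker CD138, was at 96.6 and 131 TPM with scramble and at 150.3 and 52 TPM with shRBM39, so the knockdown libraries spanned both controls. B cell markers summed to 11.6 to 17.5 TPM, nearly all of it CD79B, with FCER2 at 0. T cell markers summed to 5.12 and 5.77 TPM with scramble and 3.02 and 2.81 TPM with shRBM39, with CD3D and CD3G at 0 and CD3E called lower (4.37 and 5.64 against 0.77 and 1.06 TPM). Macrophage markers summed to 16.1 and 21.1 TPM with scramble against 5.72 and 9.82 TPM with shRBM39, nearly all of it CD68, which was not called, and FCGR3A was at 0. Most of the 5 NK cell, 6 fibroblast, 5 epithelial, 5 endothelial and 5 erythroid markers were too low to be tested. Limma called none of those that were tested. Endothelial markers summed to 21.6 and 12.1 TPM with scramble and 17.4 and 23.2 TPM with shRBM39. Erythroid markers summed to 13.3 and 12 TPM with scramble and 6.24 and 15.5 TPM with shRBM39. The NK cell, fibroblast and epithelial sums were at most 6.92 TPM in any library. The part of other cells in any result was not tested.

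The 4 widest gaps on the lower side were those of the chemokine gene CCL4, the signalling inhibitor gene SOCS3, the cytokine gene IL10 and the noncoding RNA LINC02008. CCL4, which encodes a chemokine that attracts monocytes and T cells, was at 502 and 374 TPM with scramble and 16.1 and 8.12 TPM with shRBM39 (log2 change -5.12, SE 0.328, limma adjusted p = 0.0116). SOCS3, a feedback inhibitor of JAK-STAT signalling, was at 31.6 and 25.8 TPM with scramble and 0.59 and 0.21 TPM with shRBM39 (log2 change -4.41, adjusted p = 0.0116). IL10, the gene of an immunosuppressive cytokine, was at 138 and 23.9 TPM with scramble and 0.77 and 0.33 TPM with shRBM39 (log2 change -5.26, adjusted p = 0.0239). The controls of these 3 genes also lay above all DMSO libraries of the line. All these groups were far apart, but the controls of IL10 themselves differed several-fold, so its size is poorly fixed. The near-identical copies CCL4L2, at 314 and 363 against 50.8 and 35.6 TPM, and CCL3L1, at 1491 and 729 against 165 and 97 TPM, moved with CCL4 and CCL3, and reads may have been split among them. CCL3 was at 3450.1 and 2263 TPM with scramble and 565 and 444 TPM with shRBM39 (log2 change -2.48, adjusted p = 0.0121), and so remained an abundant transcript after the knockdown. The B cell chemokine gene CXCL13 and CCL5 also fell, which brings the list of chemokines and cytokines to 7 called lower and 0 higher of 13 tested, with a median log2 change of -1.25. The calls of IL10, CCL3L1 and CXCL13 were lost when either shRBM39 library was left out, and that of CCL5 after quantile normalization (adjusted p = 0.0535).

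Other genes among the widest lower gaps had varied roles. LGALS1, the gene of galectin-1, a lectin that binds cell surface sugars, was among the most abundant of them, at 1437 and 1283 TPM with scramble and 155 and 232 TPM with shRBM39 (log2 change -2.83, SE 0.208, limma adjusted p = 0.0116). PARP9, an interferon-induced ADP-ribosyltransferase gene, was at 14.9 and 15.1 against 1.63 and 1.73 TPM, and HERC5, which attaches the ubiquitin-like protein ISG15, at 31.6 and 21.9 against 2.87 and 3.52 TPM. The interferon list as a whole had 2 of 24 tested members lower (HERC5 and OAS1) and 0 higher. Its share called lower, 8.33%, was near the 6.35% of all genes tested. PARP9 was not in that list. The list's median log2 change was -0.49, against 0 for all genes. In 16 of the 24 both shRBM39 libraries lay below both controls (31.9% of all genes), and in 3 both lay above (30.5% of all genes). SLX1B, a subunit gene of a structure-specific nuclease, was at 27.4 and 19.2 against 2.9 and 0.71 TPM, while its near-identical copy SLX1A was at 23.1 and 21.9 against 13.9 and 12.1 TPM, so their division of reads is uncertain. LINC02008, a long noncoding RNA, was at 7.76 and 7.82 TPM with scramble and listed at 0 in both shRBM39 libraries. The remaining members of these 12 were CDCA2, CENPI and CENPA, which act on mitotic chromosomes.

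**Figure D2:**
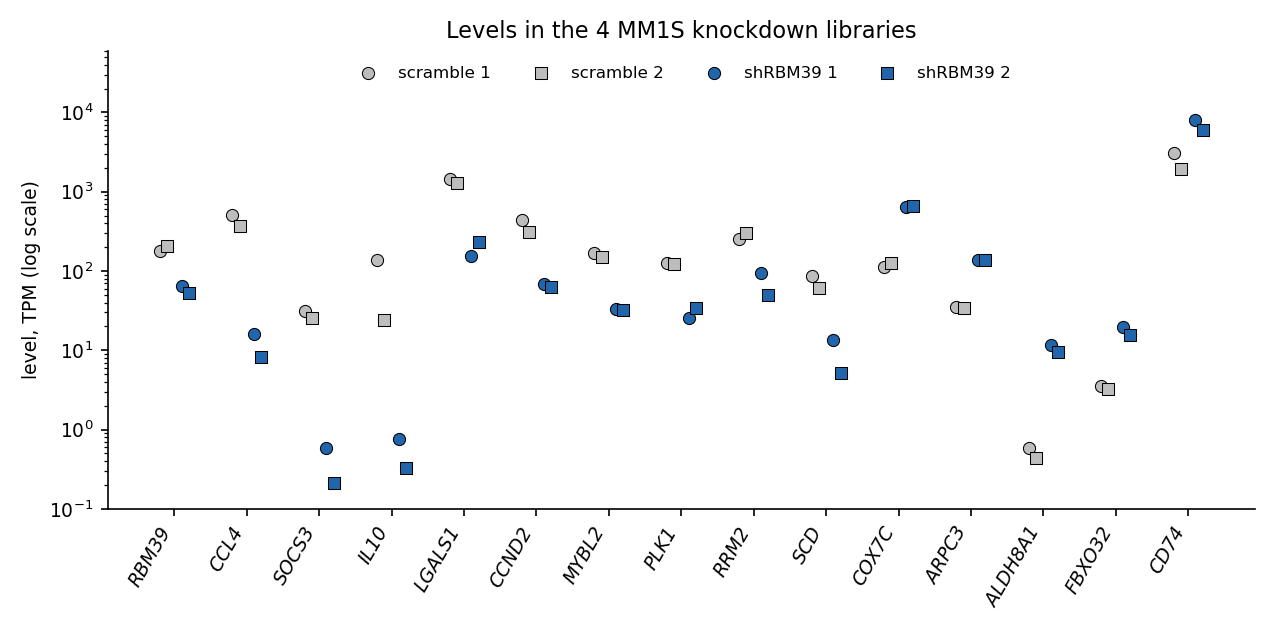
Level in TPM (log scale) of 15 genes in each of the 4 libraries, scramble in grey and shRBM39 in blue, circles for library 1 and squares for library 2. For each of these genes both shRBM39 libraries lie on the same side of both controls, as for every gene called. The 2 controls of IL10, at 138 and 23.9 TPM, are far apart, and those of LGALS1, at 1437 and 1283 TPM, are close.

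Cell division genes formed the first large group, and spindle genes had the highest share of members called lower among the 61 lists. Of 27 tested genes of the spindle and of cytokinesis, 26 fell and 0 rose, with a median log2 change of -1.61 and a gap of at least 1 for 26 of them. The remaining member, the contractile ring gene ANLN, was at 24.3 and 27.6 TPM with scramble and 6.82 and 13.5 TPM with shRBM39 (limma adjusted p = 0.0555). Of 25 kinetochore and centromere genes 21 fell, with a median of -1.57, and of 19 condensin, cohesin and topoisomerase genes 14 fell, with a median of -1.22. No member of these lists rose.

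Many promoters of cell division genes hold 2 short elements, a CCAAT box, which NF-Y binds, and a cell cycle genes homology region (CHR), which the MuvB complexes bind, and many replication promoters hold an E2F site. To show how these letters lie in a promoter, the 150 bases before the start of 4 cell division genes that fell are printed. The genes were picked because their promoters hold both elements, so they do not stand for the group, in which 39.6% of promoters hold both. They are written 5' to 3' from the RefSeq promoter table (build GRCh38.p14), with CHR type letters (TTTGAA or TTTAAA) and CCAAT boxes in capitals on either strand, so that ATTGG is a CCAAT box on the opposite strand and the elements can overlap. CDCA8 lies on chr1:37692366-37692515, CENPA on chr2:26785906-26786055, NUSAP1 on chr15:41332731-41332880 and PLK1 on chr16:23678739-23678888, all on the plus strand.
CDCA8: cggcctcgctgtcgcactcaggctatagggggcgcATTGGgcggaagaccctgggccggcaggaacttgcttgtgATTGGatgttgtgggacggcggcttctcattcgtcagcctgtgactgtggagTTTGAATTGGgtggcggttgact
CENPA: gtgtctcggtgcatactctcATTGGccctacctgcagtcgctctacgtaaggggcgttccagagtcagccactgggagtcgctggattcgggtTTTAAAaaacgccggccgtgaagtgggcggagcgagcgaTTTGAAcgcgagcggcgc
NUSAP1: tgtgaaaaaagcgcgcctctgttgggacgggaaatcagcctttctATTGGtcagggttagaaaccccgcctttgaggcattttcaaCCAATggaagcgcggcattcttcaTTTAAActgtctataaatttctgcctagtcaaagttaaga
PLK1: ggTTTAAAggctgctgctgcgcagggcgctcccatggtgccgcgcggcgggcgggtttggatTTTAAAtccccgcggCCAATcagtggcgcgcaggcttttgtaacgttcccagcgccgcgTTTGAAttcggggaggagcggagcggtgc

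These 4 genes had like changes. CDCA8, a subunit of the chromosomal passenger complex, was at 57.6 and 53.6 TPM with scramble and 13.9 and 12.5 TPM with shRBM39 (log2 change -2.00). CENPA, the histone H3 variant that marks centromeres, was at 26.8 and 28 TPM with scramble and 4.76 and 3.63 TPM with shRBM39 (log2 change -2.46). NUSAP1, which binds spindle microtubules, was at 184 and 170.2 TPM with scramble and 63.7 and 61.4 TPM with shRBM39 (log2 change -1.49). PLK1, a mitotic kinase, was at 127 and 122 TPM with scramble and 25.2 and 34.1 TPM with shRBM39 (log2 change -2.05), and limma's adjusted p was 0.0116 for each of the 4 genes. All 4 kept measurable transcript after the knockdown.

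The same letters were counted in every promoter of the table (250 bases before to 50 after each start). Of 13594 promoters of tested protein-coding genes, 17.5% held a CHR type element, 35.5% a CCAAT box and 6.93% both. Among 972 promoters of protein-coding genes that fell the shares were 26.3%, 45.2% and 14.7%, and among 509 of those that rose 15.9%, 30.1% and 4.32%. In the 101 promoters of the 4 cell division lists (spindle, kinetochore, chromosome structure and anaphase-promoting complex) they were 56.4%, 60.4% and 39.6%. Over all 35116 promoters of the table, tested or not, they were 24.0%, 34.6% and 9.27%. The promoters matched 83.4% of tested protein-coding genes and 86.5% of the cell division genes, and a match of letters is a description, not a bound site.

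More members of the spindle, kinetochore and chromosome structure lists that fell are given here by name. HMMR, a spindle assembly factor, was at 93.1 and 75.4 TPM with scramble and 15.6 and 28.8 TPM with shRBM39. CEP55, needed for the final cut between daughter cells, was at 49.1 and 42 against 10 and 13.3 TPM. TOP2A, the topoisomerase that untangles chromosomes, was at 176 and 163 against 31.7 and 53 TPM. Each of these passed limma's test, and its groups did not overlap, as held for every gene called. CENPI, at 11.3 and 11.6 against 1.44 and 1.54 TPM, and NUF2, at 127 and 119.8 against 22.9 and 30.9 TPM, are parts of the inner and the outer kinetochore. Of 18 genes of the anaphase-promoting complex and its partners, 4 fell, and these were the activator CDC20, the ubiquitin-conjugating enzymes UBE2C and UBE2S and the inhibitor FBXO5. No core subunit of that complex was called as deposited, and 1 gene of the list rose after median scaling or quantile normalization.

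DNA replication genes formed a second large group. Of 21 genes of origin licensing and the replicative helicase 15 fell (median -1.27), of 24 genes of polymerases, clamp and ligase 13 fell (median -1.07), of 11 genes of nucleotide supply 6 fell (median -1.11), and of 13 checkpoint genes 6 fell (median -0.43), with 0 rising in any. To set these beside the cell division promoters, the same 150 bases of 3 replication genes, picked for holding E2F type letters, are printed, with E2F type letters (TTTCGCGC, TTTGGCGC or TTCCCGCC, either strand) in capitals. MCM3 lies on chr6:52284743-52284892, POLE on chr12:132687343-132687492 and GINS2 on chr16:85688955-85689104, all on the minus strand and printed 5' to 3' along it.
MCM3: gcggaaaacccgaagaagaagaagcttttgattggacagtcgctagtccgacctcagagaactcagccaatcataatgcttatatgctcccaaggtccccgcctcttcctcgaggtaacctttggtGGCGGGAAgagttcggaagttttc
POLE: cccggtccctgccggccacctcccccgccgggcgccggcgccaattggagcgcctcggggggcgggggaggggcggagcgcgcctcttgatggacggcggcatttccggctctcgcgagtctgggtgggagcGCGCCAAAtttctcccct
GINS2: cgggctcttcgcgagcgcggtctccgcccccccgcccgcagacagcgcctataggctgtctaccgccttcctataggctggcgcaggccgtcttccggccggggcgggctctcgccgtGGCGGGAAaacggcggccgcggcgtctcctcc

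E2F type letters were found in 6.64% of promoters of tested protein-coding genes, in 12.3% of those of genes that fell and 5.5% of those of genes that rose, and in 24 of 83 (28.9%) promoters of the 4 replication lists. CHR type elements were found in 10.8% of the replication promoters and CCAAT boxes in 56.6%. MCM3, a helicase subunit, was at 152 and 158 TPM with scramble and 52 and 44.5 TPM with shRBM39 (log2 change -1.67, limma adjusted p = 0.0116). POLE, the leading strand polymerase, was at 30.2 and 29.6 against 13.1 and 11.5 TPM (log2 change -1.22, adjusted p = 0.0163). GINS2, a part of the replicative helicase, was at 9.55 and 11.3 against 3.95 and 2.76 TPM (log2 change -1.40, adjusted p = 0.0268). In all 3 genes both knockdown libraries lay below both controls, as in every gene called lower.

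Among the larger replication changes were factors made around the G1 to S transition. PCLAF, which binds the sliding clamp, was at 84.5 and 87.9 TPM with scramble and 18 and 4.63 TPM with shRBM39 (log2 change -3.07, SE 0.554, limma adjusted p = 0.0347), and its 2 knockdown libraries differed several-fold. RRM2, the regulated subunit of ribonucleotide reductase, was at 253 and 298 TPM with scramble and 93.7 and 49.6 TPM with shRBM39 (log2 change -1.99). CDC6 and CDT1, which load the helicase, were at 64 and 62.5 against 19.3 and 10.6 TPM and at 23.7 and 18.1 against 8.07 and 3.17 TPM. MCM6, the remaining helicase ring subunit, was not called, at 43.9 and 48.8 TPM with scramble and 31.3 and 19.7 TPM with shRBM39 (adjusted p = 0.0744).

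Transcripts of cell cycle regulators were also lower. MYBL2, which binds MuvB to activate mitotic genes, was at 169 and 149 TPM with scramble and 32.7 and 31.8 TPM with shRBM39 (log2 change -2.27, SE 0.129, limma adjusted p = 0.0116). FOXM1, the forkhead factor of the G2 phase, was at 52 and 46.3 TPM with scramble and 14.6 and 15.7 TPM with shRBM39 (log2 change -1.63). CCND2, which encodes cyclin D2, was at 437 and 314 TPM with scramble and 68.8 and 63 TPM with shRBM39 (log2 change -2.47, adjusted p = 0.0116). In the 3 genes the groups stood well apart, and for CCND2 the controls also lay above all DMSO libraries of the line. Of 16 E2F and MuvB genes 9 fell, and of 13 cyclin, CDK and CDC25 genes 7 fell, with 0 rising in both. Among genes that restrain the cycle, RB1 (21.8 and 24.3 against 8.22 and 13 TPM) and RBL1 (17.7 and 17.5 against 5.04 and 3.78 TPM) fell as well, so the 4 of 8 members called in the list of inhibitors and RB proteins went the same way as the cyclins. The call of RB1 was lost after median scaling (adjusted p = 0.0593) and quantile normalization (adjusted p = 0.0634).

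DNA repair and chromatin genes linked to replication fell in part. Of 22 homologous recombination genes 13 fell (median -0.94), SLX1A and SLX1B among them, and of 11 Fanconi genes 7 fell (median -1.12). The histone variant gene H2AFZ was at 610.5 and 746 against 261 and 237 TPM, and the histone chaperone gene ASF1B at 38 and 41.6 against 8.86 and 7.24 TPM. Maintenance of DNA methylation was represented by DNMT1 (104 and 106 against 50 and 41.6 TPM) and UHRF1 (18.9 and 22.3 against 9.89 and 5.31 TPM), both called lower. Replication-dependent histone genes, whose messages mostly lack a poly(A) tail, were poorly covered, with 10 of 49 tested, and the 1 called was HIST1H2BK, which rose from 3.09 and 4.31 TPM to 15.5 and 17.1 TPM.

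**Figure D3:**
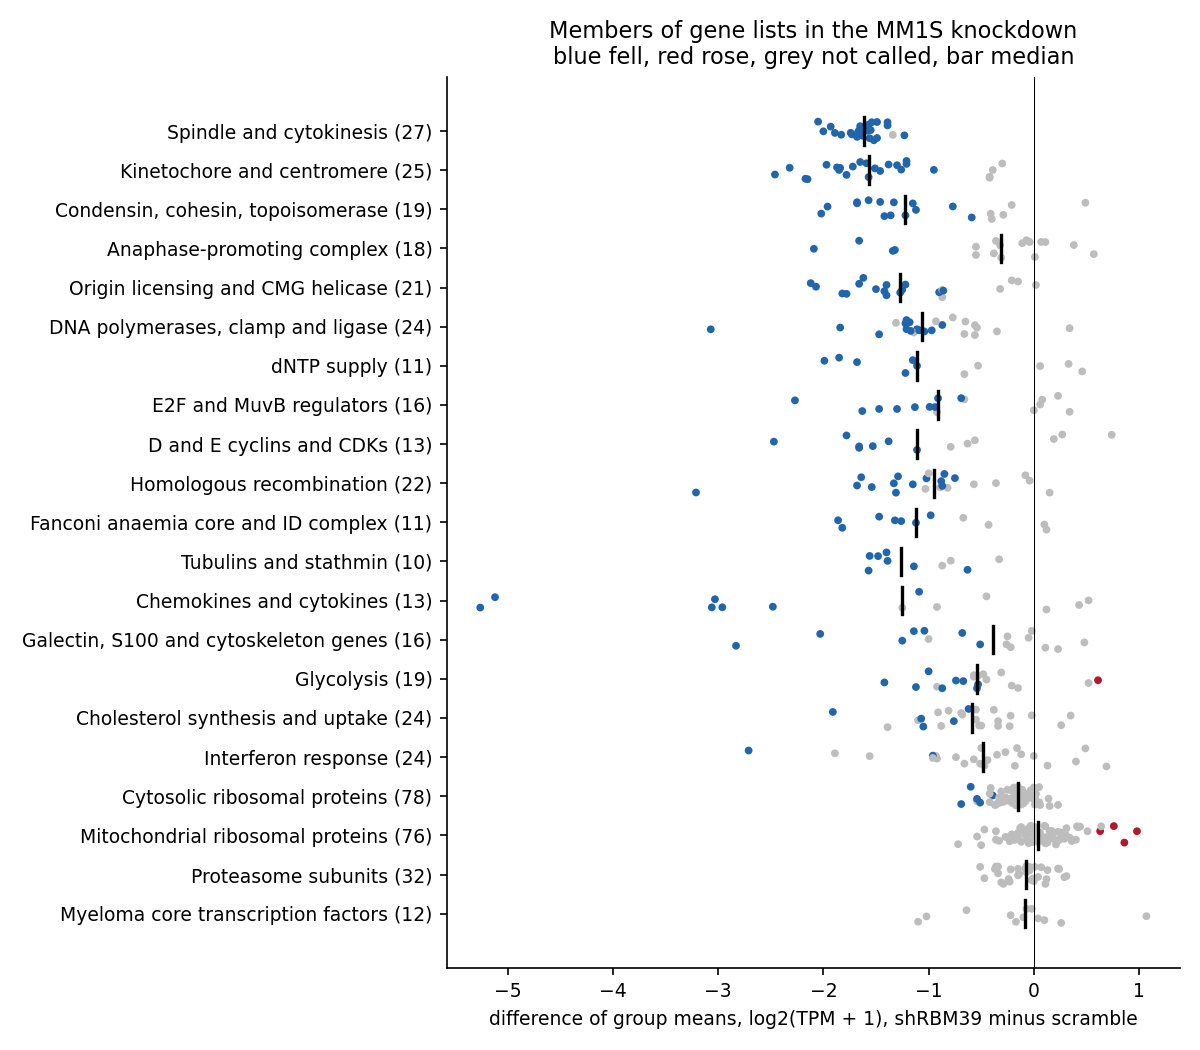
Difference between the shRBM39 and scramble means (log2(TPM + 1)) of each tested member of 21 gene lists, with the number tested in brackets, blue for genes that fell, red for genes that rose, grey for genes not called and a bar at the list's median. Spindle genes sit together around -1.61, while proteasome subunits and core myeloma transcription factors sit around 0 with no member called.

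Cytoskeleton and metabolic genes moved in part, and are set against 6.35% of all genes lower and 3.97% higher. Of 10 tubulin and stathmin genes 7 fell (median -1.27), with TUBA1B, the main alpha tubulin gene here, at 1462 and 1564 TPM with scramble and 544 and 484 TPM with shRBM39. VIM, the intermediate filament gene vimentin, was at 395 and 323 against 96.4 and 77.5 TPM. Beside LGALS1 and VIM, 5 more of 16 galectin, S100 and cytoskeleton genes fell, against a list median of -0.38, so the list moved through a subset of its members (6 fell and 1 rose after median scaling). Of 19 glycolysis genes 8 fell (42.1%) and 1 rose (5.26%, near the share of all genes). LDHA, which makes lactate, was at 1411 and 1348 TPM with scramble and 574 and 461 TPM with shRBM39, and the muscle type phosphofructokinase gene PFKM was the 1 that rose, from 69.9 and 72.5 TPM to 117 and 103 TPM. SCD, the fatty acid desaturase, was at 87.6 and 61.1 TPM with scramble and 13.4 and 5.18 TPM with shRBM39 (log2 change -2.97, SE 0.427, limma adjusted p = 0.0224). In the same fatty acid list 4 of 11 genes fell (36.4%), and 5 of 24 cholesterol genes (20.8%). HPRT1, the purine salvage enzyme, was at 59.8 and 63.5 against 26.5 and 12.6 TPM.

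Genes that rose were more mixed in kind. COX7C, a small subunit of cytochrome c oxidase, was at 112 and 125 TPM with scramble and 649.5 and 651 TPM with shRBM39 (log2 change 2.45, SE 0.117, limma adjusted p = 0.0116). ARPC3, a subunit of the actin-nucleating ARP2/3 complex, was at 35.5 and 34.2 against 136 and 136 TPM (log2 change 1.93), and SRP14, part of the signal recognition particle, at 101 and 114 against 302 and 307 TPM (log2 change 1.50). In each of these 3 the libraries of a side lay close together, and no other tested subunit of cytochrome c oxidase rose, while COX6C and COX8A fell. The DMSO and indisulam libraries of the same line, which were scaled in a separate table and so are given as levels without a test, had 913 to 999 TPM with DMSO and 777 to 941 TPM with indisulam for COX7C, 163 to 177 TPM with DMSO and 115 to 124 TPM with indisulam for ARPC3 and 329 to 344 TPM with DMSO and 277 to 299.8 TPM with indisulam for SRP14. For all 3 genes the values of the scramble libraries were the lowest of the 10 MM1S expression libraries.

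Other risers started from a low level. ALDH8A1, an aldehyde dehydrogenase gene, was at 0.59 and 0.44 TPM with scramble and 11.8 and 9.62 TPM with shRBM39 (log2 change 2.94, SE 0.218, limma adjusted p = 0.0116). ERMN was at 2.66 and 1.78 TPM with scramble and 15.8 and 15.6 TPM with shRBM39, and FBXO32, a ubiquitin ligase subunit gene controlled by FOXO factors in muscle, at 3.57 and 3.21 against 19.7 and 15.4 TPM. LHFPL2, GPC6, which encodes a glypican, and CBLN3 rose from 5.29 and 3.25, from 1.9 and 1.23 and from 6.29 and 5.18 TPM to 22.4 and 26.8, to 12.2 and 9.7 and to 23.7 and 23.1 TPM. The pseudogene SNRPGP15 was listed at 0 in both controls and at 9.92 and 12.5 TPM with shRBM39, and PPIAP22, also a pseudogene, at 0 and 1.59 against 8.71 and 13.8 TPM. Reads of such copies can be shared with their parent genes. The noncoding RNA LINC02227 was at 0.45 and 0.3 TPM with scramble and 5.57 and 5.72 TPM with shRBM39.

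Plasma cell products and antigen presentation showed a small number of rises. The light chain genes IGLV6-57 (7.48 and 8.84 against 46.9 and 51.4 TPM), IGLC1 (14079 and 15926 against 24107 and 23769 TPM) and IGLL5, which can share reads with IGLC1, rose, 3 of 8 tested segments, though IGLC1 was not called after quantile normalization (adjusted p = 0.379). CD74, the invariant chain of MHC class II, was at 3062 and 1954 TPM with scramble and 7966 and 6056 TPM with shRBM39. Its log2 change was 1.50 (limma adjusted p = 0.0287). It was the 1 of 13 class II genes called (7.69%, against 3.97% of all genes higher). All 13 were lower in scramble 2 than in scramble 1 (median difference -0.68). HLA-B (711 and 711 against 974 and 1073 TPM) and HLA-C (438 and 410.1 against 645 and 634 TPM) rose. Read sharing among these HLA genes cannot be told from the table. Among surface proteins used as myeloma targets, GPRC5D fell from 84.8 and 154 TPM to 28.2 and 32.5 TPM and FCRL5 fell from 4.03 and 2.17 TPM to 0.41 and 0.36 TPM, and SLAMF7 rose from 129.6 and 128 TPM to 196 and 186 TPM. The calls of CD74, GPRC5D and FCRL5 were lost when either shRBM39 library was left out.

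Groups close to the study's question are given next, against 6.35% of all genes lower and 3.97% higher. Of 11 tested MEK5-ERK5 genes 2 fell (18.2%), the kinase gene MAPK7, which encodes ERK5, from 7.55 and 8.53 TPM to 4.13 and 2.95 TPM (limma adjusted p = 0.049) and the kinase gene SGK1 from 259 and 172 TPM to 37.6 and 66.9 TPM (adjusted p = 0.0274). Of 17 3' splice site factors RBM39 fell and SF3B1, the branch point protein, rose from 92.5 and 93.4 TPM to 184 and 212 TPM (log2 change 1.08, adjusted p = 0.0165). In that list 1 gene each way is a share of 5.88%. The splicing kinases CLK1 (75.7 and 71 against 126 and 124 TPM) and SRPK2 (31.5 and 27.9 against 55.3 and 52.1 TPM) rose, 2 of 8 tested. Of 16 SR proteins and regulators 1 rose (6.25%), the SR-like factor TRA2A (77.5 and 78 against 118 and 129 TPM). Of 20 hnRNP genes 2 fell (10%), HNRNPC (423 and 466 against 287 and 241 TPM) and HNRNPA1. The limma call of HNRNPA1 was lost after median scaling (adjusted p = 0.0608) and quantile normalization (adjusted p = 0.124). Of 22 p53 targets 4 rose, the death genes BBC3, FAS and BAX and the RNA-binding gene ZMAT3, and POLH fell. The lists with no call were nonsense-mediated decay (14 tested), proteasome subunits (32), nucleolar genes (22), heat shock genes (16) and core myeloma transcription factors (12). Their members at an unadjusted p below 0.05 numbered 2, 6, 4, 1 and 4. After quantile normalization 1 gene rose in the decay, the proteasome and the transcription factor list each.

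The 2 shRBM39 libraries differed from each other by gene group, and so did the 2 scramble libraries. Scramble 2 was below scramble 1 for 13 of 13 MHC class II genes (median difference -0.68, log2(TPM + 1)) and 18 of 19 glycolysis genes (-0.12). It was also lower for 72 of 78 cytosolic ribosomal protein genes (-0.09), but for 0 of 20 hnRNP genes (0.20). Over all genes tested, 59.6% were lower in shRBM39 2 than in shRBM39 1, with a median difference of -0.08 on the log2(TPM + 1) scale, and 48.4% were lower in scramble 2 than in scramble 1. The 13 mitochondrially encoded genes summed to 159001 and 161198 TPM with scramble and to 160465 and 196369 TPM with shRBM39. Since TPM is a share, a larger mitochondrial sum lowers the other values of that library. Its part in the differences below was not tested. All 23 tested ATF4 targets, genes of the amino acid and stress response, were lower in shRBM39 2, with a median difference of -1.02, against -0.07 between the controls. CHAC1, a glutathione-degrading enzyme gene, was at 2.15 and 1.03 TPM with scramble and 14.4 and 2.12 TPM with shRBM39, and the stress factor gene DDIT3 at 12.1 and 11.4 against 36.9 and 11.4 TPM. For both the first knockdown library stood above the controls and the second lay close to them. Of 16 heat shock genes 15 were lower in shRBM39 2 (median -0.65, and 0.17 for scramble 2 minus scramble 1), of 24 cholesterol genes 23 (median -0.56, though 20 were also lower in scramble 2 than in scramble 1, median -0.18), and all 22 nucleolar genes (median -0.39, and 0.18 between the controls). The immediate early gene FOS was at 41.5 and 83.4 TPM with scramble and 22.8 and 3.13 TPM with shRBM39.

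Licensing, nucleotide supply and spindle genes differed between the shRBM39 libraries, the spindle list in the opposite direction. Of 21 licensing and helicase genes 18 were lower in shRBM39 2 than in shRBM39 1, and of 11 nucleotide supply genes 11, with medians of -0.35 and -0.49. Of 27 spindle genes 5 were lower in shRBM39 2, and the median difference was 0.32. Between the controls 22 of the 27 were lower in scramble 2 than in scramble 1 (median -0.07). The other division lists showed little shift, with 13 of 25 kinetochore genes lower in shRBM39 2 (median -0.04), 8 of 19 chromosome structure genes (median 0.06) and 9 of 18 genes of the anaphase-promoting complex list (median -0.03). Summed over the licensing list the level was 1111 and 1156 TPM with scramble and 516 and 404 TPM with shRBM39. Over the spindle list it was 1802 and 1697 TPM with scramble and 496 and 601 TPM with shRBM39. Both knockdown libraries were below both controls in each sum, and the order of the knockdown libraries was reversed between the sums. With 1 library of each number, these differences carry no test, and whether a hairpin, a culture or the handling of a library moves with them was not tested.

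**Figure D4:**
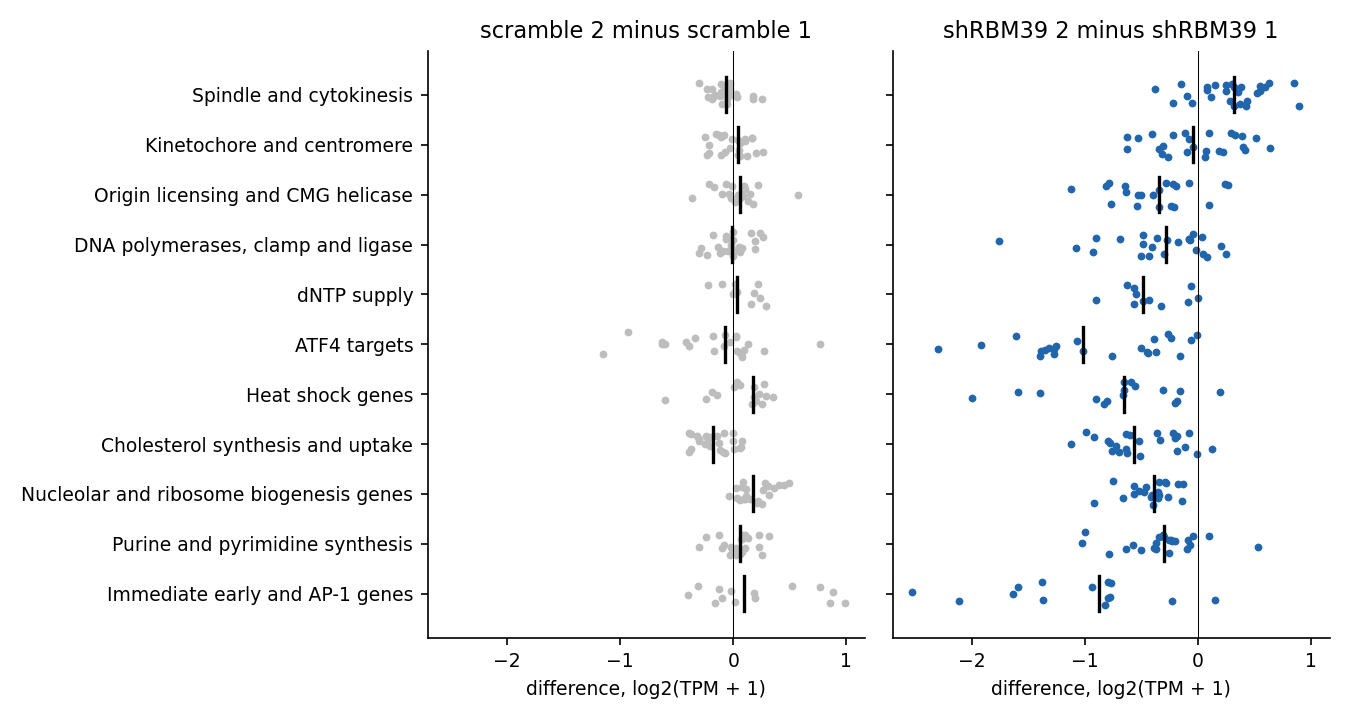
Difference between the 2 libraries of a side for each tested member of 11 gene lists, on the log2(TPM + 1) scale, scramble 2 minus scramble 1 at left in grey and shRBM39 2 minus shRBM39 1 at right in blue, with a bar at each list's median. The ATF4 targets are shifted to -1.02 between the knockdown libraries and to -0.07 between the controls, and spindle genes are shifted to 0.32 and -0.07.

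Set beside indisulam, whose 3 libraries have DMSO controls of their own, part of the knockdown genes were called again. RBM39 transcript itself was at 178 to 196 TPM with DMSO and 149 to 226 TPM with indisulam (log2 change 0.05, limma adjusted p = 0.828, and 0.24 with an adjusted p of 0.00793 without indisulam 3). Of 13445 genes tested with indisulam, 2885 (21.5%) fell and 1139 (8.47%) rose, so that 28.3% of the calls rose, against 46.7% after median scaling and 52.1% after quantile normalization. The number called in all, 4024, was 8623 without indisulam 3 and 1752 to 1948 without 1 of the DMSO libraries. Among the 12575 genes tested in both comparisons, 475 fell in both, which is 55.6% of the 855 that fell in the knockdown, against 22.0% of all genes that fell with indisulam, and 17.2% of the 2767 that fell with indisulam, against 6.8% of all genes that fell in the knockdown. Another 141 rose in both, 27.9% of the 505 (7.54% of all genes rose with indisulam) and 14.9% of the 948 (4.02% of all genes rose in the knockdown). The median indisulam change of genes that fell in the knockdown was -0.71 and of those that rose 0.40, against -0.06 for all genes. A change opposite in sign was called for 13 (1.52%) of the genes that fell, against 7.54% of all genes. For those that rose it was 22 (4.36%), against 22.0% of all genes. Without indisulam 3, 64.0% of the genes that fell in the knockdown also fell (29.9% of all genes). Of those that rose 68.2% also rose (36.6% of all genes). Opposite calls were then 15.4% of the genes that fell (36.6% of all genes) and 8.25% of those that rose (29.9% of all genes).

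LGALS1 fell in both, at 2046 to 2256 TPM with DMSO and 315 to 425 TPM with indisulam (log2 change -2.53, limma adjusted p = 6.33e-05), and CDCA2 and CENPA did so too. ALDH8A1, ERMN, FBXO32, SEC31B, a subunit gene of vesicle coats (22.7 and 20.2 TPM with scramble and 76.9 and 80.9 TPM with shRBM39), and HIST1H2BK rose in both. The chemokine gene CCL3 was at 1155 to 1333 TPM with DMSO and 3969.7 to 4822 TPM with indisulam (log2 change 1.85, adjusted p = 9.2e-05), called higher with indisulam and lower in the knockdown. CD74, IL2RG, ARPC3 and SRP14 rose in the knockdown and fell with indisulam, at log2 changes of -0.35, -0.54, -0.50 and -0.23 against 1.50, 1.20, 1.93 and 1.50. Whether the 2 comparisons differ for a gene was not tested, since their tables were scaled separately and no dose or time is given.

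By list, some groups were called in both comparisons and others in 1 of them. Of 21 licensing and helicase genes 17 fell with indisulam, at a median of -1.74, and of 27 spindle genes 16 fell and 1 rose, at a median of -0.74 against -1.61 in the knockdown. Proteasome subunits, with 0 of 32 called in the knockdown by limma, fell in 28 of 32 cases with indisulam. Mitochondrial ribosomal protein genes rose in 4 of 76 cases with 0 falling in the knockdown (MRPL18, MRPL24, MRPS9 and MRPS10), and fell in 38 and rose in 2 with indisulam. Cytosolic ribosomal protein genes fell in 5 of 78 cases in the knockdown (median -0.15, or 0.01 after quantile normalization), and with indisulam 8 rose and 1 fell (median 0.17). Without indisulam 3, 18 spindle genes fell and 4 rose, 17 licensing genes fell and 2 rose, 30 proteasome subunits fell and 1 rose, 55 mitochondrial ribosomal protein genes fell and 7 rose, and 18 cytosolic ones rose and 15 fell. Over all genes tested 21.5% fell and 8.47% rose with indisulam, and 6.35% fell and 3.97% rose in the knockdown, so the shares of mitochondrial (5.26%) and cytosolic (6.41%) ribosomal protein genes called in the knockdown were near the background.

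**Figure D5:**
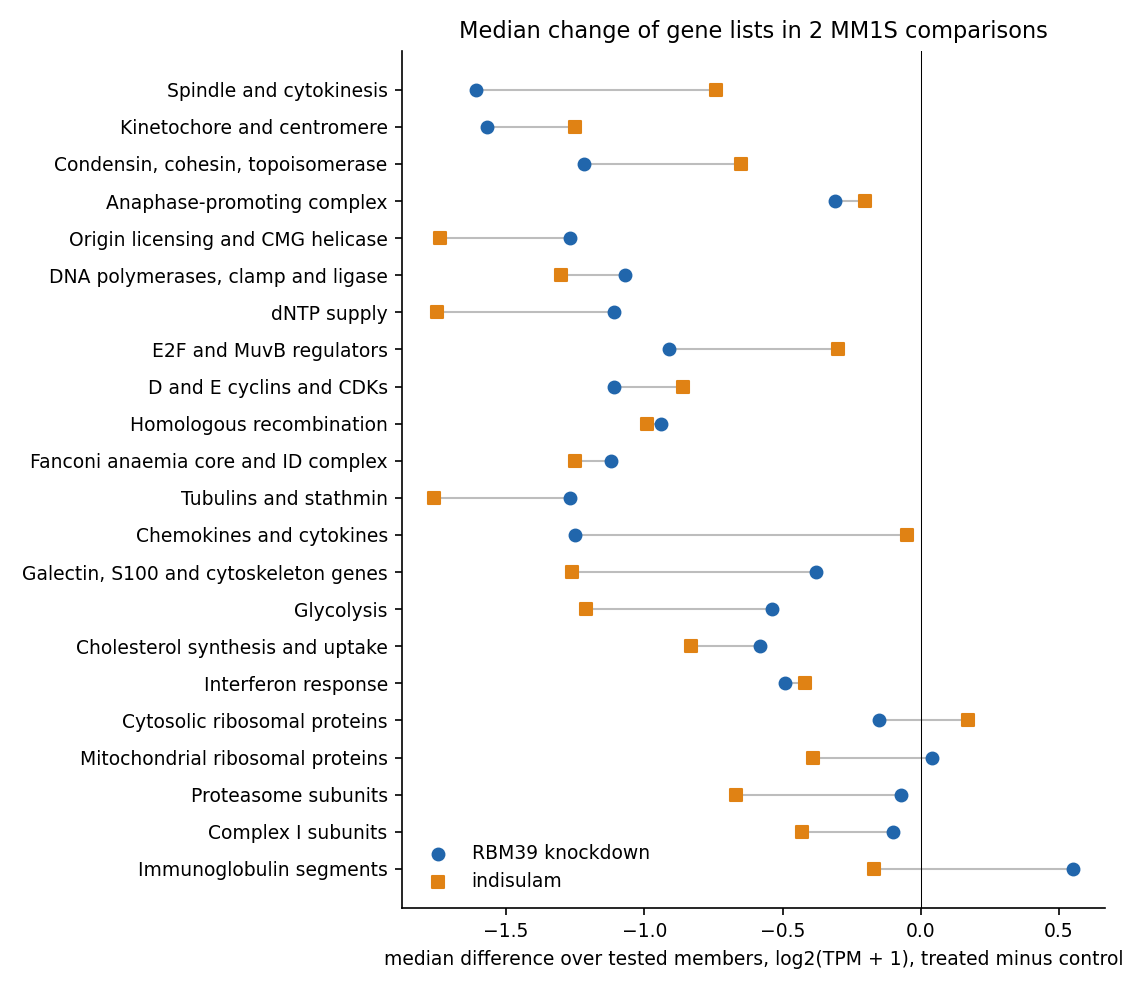
Median difference over the tested members of 22 gene lists, log2(TPM + 1), treated minus control, in the RBM39 knockdown (blue circles, 2 against 2 libraries) and with indisulam (orange squares, 3 against 3 libraries). Spindle genes lie further below 0 in the knockdown (-1.61 and -0.74), licensing genes and proteasome subunits further below 0 with indisulam.

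Several genes that fell were far higher in the scramble libraries than in the DMSO libraries of the same line. SOCS3, at 31.6 and 25.8 TPM with scramble, had 0.11 to 0.16 TPM with DMSO and 0.04 to 0.19 TPM with indisulam. IL10 had 0 to 0.14 TPM with DMSO and 0 to 0.13 TPM with indisulam, PARP9 0.29 to 0.42 TPM with DMSO and 0.05 to 0.09 TPM with indisulam and FCRL5 0.1 to 0.16 TPM with DMSO and 0.04 to 0.27 TPM with indisulam. The same held for abundant genes. CCL4, at 502 and 374 TPM with scramble, had 50.6 to 64.7 TPM with DMSO and 43 to 46 TPM with indisulam. CCND2, at 437 and 314 TPM with scramble, had 31.3 to 37.5 TPM with DMSO and 12.9 to 31.8 TPM with indisulam, and SGK1, at 259 and 172 TPM with scramble, had 28.1 to 31.6 TPM with DMSO and 21.8 to 40.6 TPM with indisulam. For these 7 genes the 2 scramble libraries stood above all 8 other MM1S expression libraries. Levels across separately scaled tables were not tested.

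RNA bound to RBM39 was measured with 1 RBM39 RIP library and 1 IgG library, in FPKM (fragments per kilobase, scaled for depth), so there is no replicate check. The median log2 ratio of RBM39 to IgG, with 1 FPKM added to each, was -0.13 over 750 genes that fell, -0.09 over 347 that rose and 0.04 over 8713 that were not called. A ratio of at least 1 on that scale was found for 16.7%, 19.0% and 22.3% of them.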

How the data were processed

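RNA of MM1S cells was taken up in TRIzol and made into libraries with a SMARTER mRNA kit, per the labels' protocols. Aligner and counting tool: not given in the sources used here. Builds GRCm38 and mm10, both mouse, stand in the submitters' processing notes, whereas the gene symbols are human. The deposited expression values of the authors are TPM, since each column sums to 999999 to 1000001, although the authors named the tables FPKM; the deposited RIP values are FPKM. Depth is unknown, since TPM keeps none. Of 59718 rows, 834 have no gene name and hold 0.436% to 0.459% of TPM, and they were not tested. Between 13631 and 14098 genes reached 1 TPM per library. Columns left unmatched to a sample numbered 0.

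limma 3.58.1 in R 4.3.3 (trend and robust, 2-sided) was run on log2(TPM + 1) for genes at 1 TPM or more in at least 2 of 4 libraries (3 of 6 with indisulam). Calls need an adjusted p (Benjamini-Hochberg) below 0.05. A fold on this scale understates changes of low genes. The fit was run on simulated data with changes larger than most of those called here, which does not test calls of the size seen. Knockdown and indisulam have separate controls and separately scaled tables. Library numbers were not used to pair libraries: deviations of same-numbered libraries correlated at -0.142. The members, the 61 lists and the tests were chosen with earlier results of these data known. Named genes are RBM39, MAP2K5, the 12 called genes per direction with the widest gap and a group mean of at least 5 TPM, up to 5 called members per list by adjusted p, the first 2 members of each list, and near-identical copies. ANLN, CCL5, CDC6, CDT1, CEP55, CHAC1, CXCL13, GINS2, HMMR, IL2RG, MCM6, PCLAF, PFKM, PLK1, SEC31B, SRP14 and TOP2A fall outside this rule and were chosen after their values were seen; CD3E, CD68 and CD79B are cell type markers. Some genes that the rule names are not reported here. Alternatives were another pseudocount, other filters and scalings, plain limma, blocking on library number, a minimum log2 change and leaving out each library; a crossed block was added after the data were seen. Promoters came from a RefSeq table (GRCh38.p14).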

Additional observations from a re-analysis of the deposited data

How the results depend on the processing

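Calls in the knockdown numbered 1461 as reported. They were 887 with an absolute log2 change of at least 1, 0 with no filter on low values (limma, 4966 at an unadjusted p below 0.05 among 27260 genes), 255 with the replicate block and 772 with the crossed replicate block, and between 0 and 2162 with 1 library left out, 0 for either scramble library. With the replicate block 250 of the 255 were among the 1461. The other settings (pseudocount of 0.1, a filter at 5 TPM, both rescalings, and limma fitted plainly) gave 1065 to 1743 calls. RBM39 stayed lower in each setting run and lost its call with no filter (-1.69, adjusted p = 0.0723) and without a scramble library; its change was -1.84 to -1.54 with 1 library left out and -1.69 with the replicate block (adjusted p = 0.042). Since the library numbers share only a number, no weight is placed on the block. With no filter 95 of 104 named genes other than RBM39 lost a call, without a scramble library 91, and with the replicate block 41. Named genes that changed sign were CD79B (0.03 without shRBM39 2, range over left-out libraries -0.42 to 0.03), DDIT3 (range -0.03 to 1.57) and SDC1 (range -1.10 to 0.42), none of them called with all libraries. Calls were also gained by 7 named genes in 1 or more settings, among them DDIT3 without shRBM39 2 (1.57, adjusted p = 0.00727), SDC1 without shRBM39 1 (-1.10, adjusted p = 0.0358) and ANLN (adjusted p = 0.0384 at 5 TPM, 0.0282 without shRBM39 1 and 0.00663 without shRBM39 2). With indisulam 1509 genes were called with an absolute log2 change of at least 1, and 1752 to 8623 with 1 library left out. Genes with a gap of at least 1 numbered 628 and, with a pseudocount of 0.1, 1049. Lists with most members lower numbered 12, and 10 or 11 after scaling. The median RIP ratio of genes that fell stayed at -0.13 with a pseudocount of 0.1. In each case the cause was not tested. With 2 libraries a side and unknown depth, low genes and small changes are poorly resolved.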
